A study of Mus musculus with 30 samples.

Results

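NRF2 oxidative stress genes were followed in mouse dendritic cells differentiated from bone marrow cultures, as 10 genes: Nfe2l2, Keap1, Hmox1, Nqo1, Gclc, Gclm, Txnrd1, Srxn1, Slc7a11 and Prdx1. They were taken by symbol from a table of 25611 gene rows, each symbol stood in 1 row, and all 10 were among the 14808 genes that passed the filter on low counts. Cells of both genotypes had been differentiated for 6 to 7 days in medium with FLT3L at 200 ng/ml, a cytokine that drives several dendritic cell types at once, so each library is a whole mixed culture. They were Rubcn KO or Rubcn WT. Each genotype was left without treatment, was given ovalbumin protein (OVA), or was given apoptotic Jurkat cells. Jurkat is a human leukaemia line of T-cell origin. Each exposure lasted 30 min or 4 h, and the 10 groups have 3 libraries apiece. No time is given for the untreated cultures, and no group is labelled as kept for 30 min or 4 h without OVA or Jurkat cells. In changes against untreated cells, treatment, handling and time therefore cannot be told apart. The labels do not give the knockout allele, the age or number of the mice, or whether the 3 libraries of a group came from separate mice, so p-values measure only the spread between these libraries, which may be technical. In RNA of whole cultures, fewer cells of a type and less RNA per cell cannot be told apart.

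NRF2, the product of Nfe2l2, is a transcription factor that is made continuously and, in unstressed cells, is bound by KEAP1 and marked for degradation through a CUL3 ubiquitin ligase. Oxidants and electrophiles modify cysteines of KEAP1. NRF2 then accumulates, pairs with a small MAF protein and binds antioxidant response elements of genes for glutathione and thioredoxin metabolism, quinone reduction and heme breakdown. In dendritic cells and macrophages this system is known for limiting oxidant damage and dampening inflammatory gene expression, and the autophagy receptor p62, encoded by Sqstm1, can displace NRF2 from KEAP1.

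Promoter windows of the 10 genes were searched for the core of the antioxidant response element, TGACNNNGC, on both strands, since this is the sequence that NRF2 with its MAF partner is known to bind. RefSeq promoter windows on GRCm38.p6, the assembly of mm10, run from 250 bases before to 50 bases after a start site. They were matched by symbol for 8 of the 10 genes, in 10 windows, and not for Hmox1 and Gclc. The core stood in windows of 5 of these 8 genes, Gclm, Nfe2l2, Prdx1, Srxn1 and Txnrd1, and before the start site in 4 of them. Over all 32851 windows of the same length 12.4% held it, and over the genes of the counts table with a window 14.9%. Before the start site 10.2% of these windows and 12.3% of these genes held it. A gene was counted if any of its windows held the core. A match describes these letters only and shows no binding. The 4 matches before a start site are printed with the bases around them, 5′ to 3′ on the strand of the gene, with the 9 bases of the core in capitals. In Gclm, Prdx1 and Txnrd1 the capitals are the core's reverse complement, as the core lies on the other strand. They lie at chr3:122245398-122245457, plus strand, for Gclm, chr2:75704854-75704913, minus strand, for Nfe2l2, chr4:116685441-116685500, plus strand, for Prdx1, and chr10:82859089-82859148, plus strand, for the second of 3 Txnrd1 windows.
Gclm: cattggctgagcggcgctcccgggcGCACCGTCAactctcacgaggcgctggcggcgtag
Nfe2l2: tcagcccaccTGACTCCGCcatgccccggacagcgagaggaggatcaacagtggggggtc
Prdx1: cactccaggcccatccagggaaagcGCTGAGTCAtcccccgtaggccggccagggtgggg
Txnrd1: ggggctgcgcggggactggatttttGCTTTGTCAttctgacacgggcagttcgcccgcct
The first base of the match stood 134 bases before the start site in Gclm, 240 in Nfe2l2, 133 in Prdx1 and 92 in Txnrd1. Keap1, Nqo1 and Slc7a11 held no match in this window.

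Total counts ran from 9.73 M to 51.6 M per library (median 44.9 M), and replicate 3 of KO with 30 min OVA was the shallowest. All 12 dendritic cell markers were detected in every group, among them Flt3, Zbtb46, Siglech and Xcr1. Rubcn itself stood lower in KO cultures under 5 of 5 conditions, at 73.6 to 84.7% of the WT level, without overlap. Most of its reads remained, and which part of the gene was deleted is not given, so this checks the genotype labels only in part. Replicate 2 of KO with 4 h of Jurkat cells stood apart: reads of Rn45s, the ribosomal RNA precursor, were 3.90% of its total count, against 0.0949 to 0.384% in the other 29 libraries. Markers of other cells moved with the groups. The summed level of 6 basophil or mast cell genes was 54.8 to 108.1 CPM (CPM are counts scaled to library size, here with TMM factors) in KO and 19.6 to 36.6 CPM in WT, and 11 stromal genes summed to 902.2 to 1593 and 645.9 to 1188 CPM. The sum of 20 T-lineage genes was 92.1 to 117.97 CPM in libraries without Jurkat cells and 126.5 to 214.8 CPM in those with them. Of these, 11 genes under 1 CPM in untreated WT summed to 3.86 CPM there, 23.3 after 30 min and 65.0 CPM after 4 h of Jurkat cells. In KO these sums were 5.23, 15.9 and 47.6 CPM. The sum of 14 macrophage or monocyte genes is given beside the results for OVA at 4 h. Libraries given Jurkat cells for 4 h had TMM factors of 0.765 to 0.842, against 1.03 to 1.07 in the others. Scaling to total counts moved the median log2 change of all genes from -0.02 to -0.42 in WT and from -0.03 to -0.37 in KO there.

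In untreated WT cultures all 10 genes were expressed, and their levels per length differed widely. Levels between genes are given as CPM per kilobase of exon in the GENCODE M21 basic annotation. Prdx1, a peroxiredoxin that reduces hydrogen peroxide, was highest at 146 CPM per kilobase. Nfe2l2 itself stood at 45.1, Hmox1 at 35.6 and Txnrd1 at 32.5 CPM per kilobase. Keap1 was at 20.01 and Gclc at 18.3 CPM per kilobase. The lowest were Srxn1 at 7.61, Gclm at 4.90, Nqo1 at 0.868 and Slc7a11 at 0.641 CPM per kilobase. After 4 h of Jurkat cells the WT order was led by Prdx1 (542 CPM per kilobase), Hmox1 (177) and Txnrd1 (157), with Nfe2l2 at 125. Every gene had its highest 2 group means in the KO and WT cultures given Jurkat cells for 4 h, and each of these 6 libraries lay above all other 24. Neighbours in the order of the 10 group means overlapped in from 5 of 9 neighbouring pairs for Nqo1, Srxn1 and Slc7a11 to 8 of 9 for Hmox1 and Gclc.

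**Figure D1:**
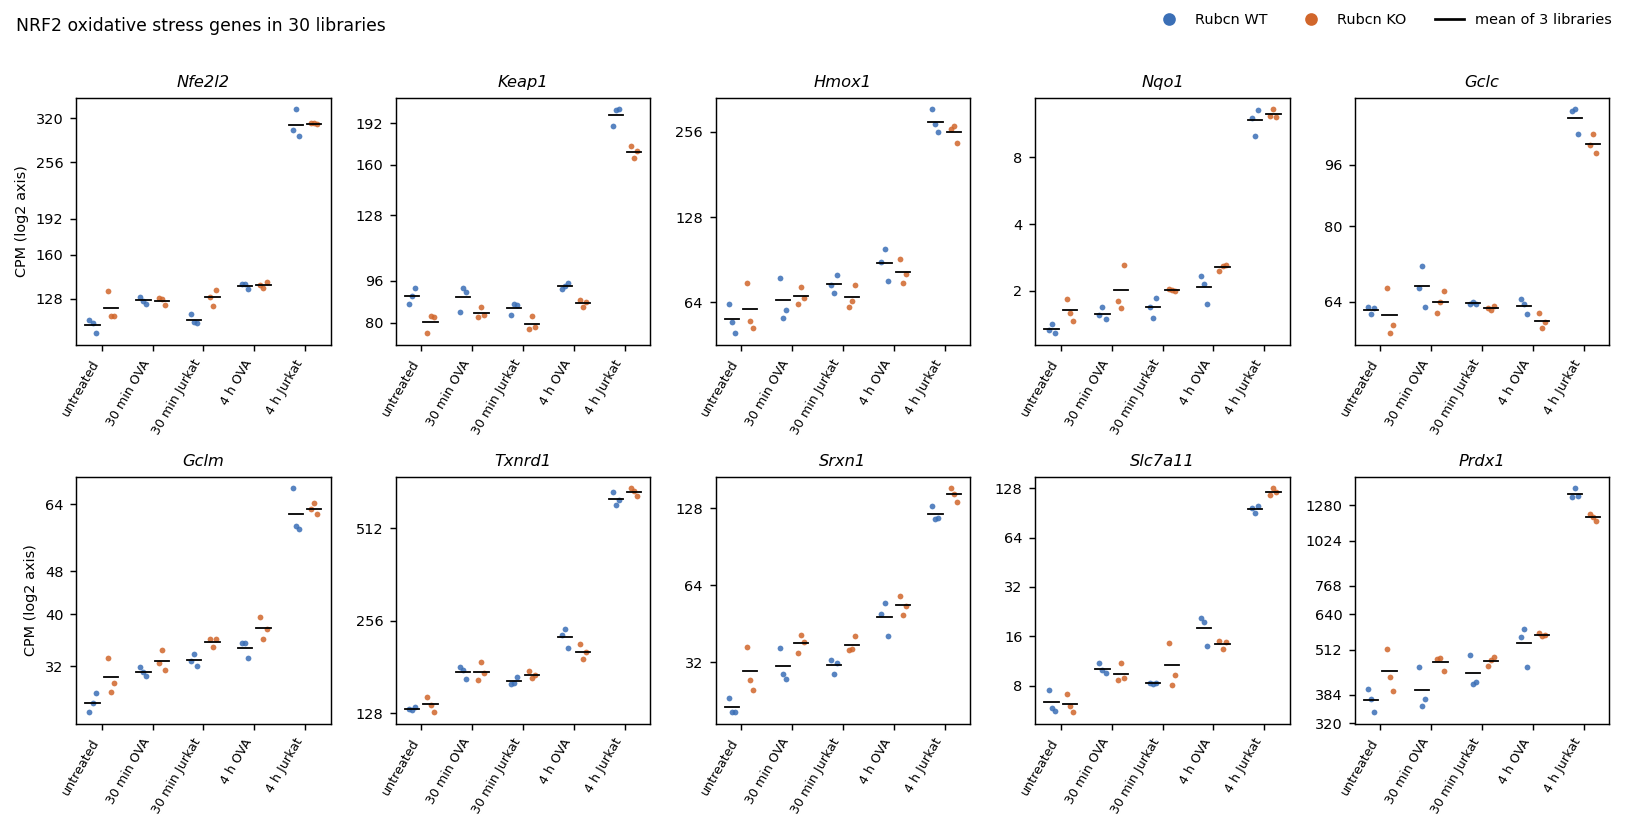
Level of each of the 10 genes in each of the 30 libraries, in CPM on a log2 axis whose range differs between panels, with 1 point per library and a black line at the mean of 3. In every panel the 6 libraries given Jurkat cells for 4 h lie above the other 24. Among the other groups, both 4 h OVA means are the highest for all genes but Keap1, Gclc and Gclm.

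The first question was how these genes stood after 4 h with apoptotic cells, against untreated cells. All 10 genes rose in both genotypes, by 1.76-fold (Gclc) to 15.2-fold (Slc7a11) in WT and by 1.66-fold to 19.8-fold in KO, with no overlap between treated and untreated libraries. In this comparison 38.9% of all genes tested were called higher in WT and 37.5% in KO, so a rise as such was common. No overlap was seen in 79.4% and 79% of all genes. The median log2 fold change of the 10 was 2.08 in WT and 1.74 in KO, against -0.02 and -0.03 for all genes tested. A call is an FDR (Benjamini-Hochberg over all genes) under 0.05 in edgeR's quasi-likelihood test over all 30 libraries, and SE is the standard error of a log2 fold change. All 10 stayed called under scaling to total counts, where the log2 changes ran from 0.42 to 3.52 in WT and from 0.39 to 3.97 in KO. They also stayed called in KO without replicate 2 with Jurkat cells, the library with the most Rn45s, at log2 0.71 to 4.27. With that scaling the share of called genes that were higher fell from 48.9% to 29.0% in WT and from 47.7% to 29.2% in KO. In the same comparisons 14 of 19 T-lineage genes tested were called higher and 4 lower in WT, and 11 higher and 5 lower in KO. Stromal genes were higher in 10 of 11 cases in WT and 11 of 11 in KO. The summed dendritic cell markers were 28372 to 31779 CPM in these 6 libraries and at most 20392 CPM in libraries without Jurkat cells. These 12 markers did not move as one, with 6 called higher and 6 lower in WT, and 6 higher and 5 lower in KO. Of 14 macrophage or monocyte genes 10 were called higher and 3 lower in each genotype. Their summed level did not rise, at 3517 to 3876 CPM in WT against 3658 to 4132 CPM untreated. In KO it was 3557 to 3886 CPM against 3816 to 4391 CPM. The part of these shifts in the members' changes was not tested.

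Both regulators rose. Nfe2l2 (Entrez 18024, chr2:75675513-75704663, minus strand) was at 115, 113 and 107 CPM in the 3 untreated WT libraries and at 301, 335 and 293 CPM after 4 h of Jurkat cells (log2 1.47, SE 0.0463, FDR 5.03e-22, edgeR). In KO it went from 133, 117 and 117 to 312, 312 and 311 CPM (log2 1.35, SE 0.0460, FDR 3.80e-21, edgeR). The means after 4 h were 309 ± 22.3 CPM in WT and 311 ± 0.560 CPM in KO (SD, n = 3), and the ranges of the genotypes overlapped. Keap1 (Entrez 50868, chr9:21229730-21239332, minus strand), which encodes the adaptor that holds NRF2 for degradation, went from 86.9, 90.0 and 93.2 to 189, 203 and 204 CPM in WT (log2 1.14, SE 0.0408, FDR 1.00e-20, edgeR). The KO values were 76.2, 82.4 and 82.1 CPM before and 174, 165 and 170.0 CPM after (log2 1.08, SE 0.0409, FDR 4.90e-20, edgeR). The exons of Keap1 share 510 bases with an antisense gene, Gm16754, in GENCODE M21, and the library kit named in the labels does not mark strand, so reads of the 2 genes cannot be told apart there.

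Genes of glutathione synthesis rose unequally. Slc7a11 (Entrez 26570, chr3:50364936-50443613, minus strand), the cystine importer that supplies cysteine for glutathione, had the largest change of the 10. Its WT libraries went from 7.52, 5.82 and 5.59 CPM to 96.9, 90.5 and 99.6 CPM (log2 3.93, SE 0.145, FDR 2.29e-20, edgeR). Its KO libraries went from 7.06, 5.97 and 5.49 CPM to 116, 128 and 122 CPM (log2 4.31, SE 0.145, FDR 2.66e-21, edgeR). The 2 subunits of glutamate-cysteine ligase, which makes the first bond of glutathione, rose far less. Gclm (Entrez 14630, chr3:122245557-122267215, plus strand), the modifier subunit, went from 26.3, 27.3 and 28.5 to 68.6, 58.3 and 57.5 CPM in WT (log2 1.17) and from 33.2, 28.6 and 29.8 to 62.8, 64.3 and 61.3 CPM in KO (log2 1.04). Gclc (Entrez 14629, chr9:77754535-77794489, plus strand), the catalytic subunit, went from 62.9, 61.7 and 62.9 to 113, 113 and 105 CPM in WT (log2 0.82) and from 66.5, 58.2 and 59.7 to 102, 105 and 99.6 CPM in KO (log2 0.73). Gclc was the smallest rise of the 10 in both genotypes, and the edgeR FDRs of these subunits ran up to 3.02e-15.

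Genes of the thioredoxin and peroxiredoxin system rose together. Txnrd1 (Entrez 50493, chr10:82833951-82897724, plus strand), the cytosolic thioredoxin reductase, stood at 132, 131 and 134 CPM in untreated WT and 671, 610.0 and 632 CPM after 4 h of Jurkat cells (log2 2.27, SE 0.0572, FDR 2.98e-24, edgeR), and in KO at 145, 136 and 129 and 692, 676 and 653 CPM (log2 2.30). Srxn1 (Entrez 76650, chr2:152105524-152111376, plus strand), sulfiredoxin, which restores over-oxidised peroxiredoxins, went from 23.2, 20.5 and 20.5 to 130.3, 116 and 117 CPM in WT (log2 2.502) and from 36.7, 27.3 and 24.99 to 153, 145 and 136 CPM in KO (log2 2.29). Prdx1 (Entrez 18477, chr4:116685599-116700000, plus strand) went from 398, 375 and 343 to 1348, 1428 and 1361 CPM in WT (log2 1.89), the highest level of any of the 10. In KO it started higher, at 515, 429 and 393 CPM, and ended lower, at 1209, 1189.5 and 1161 CPM (log2 1.41). The edgeR FDRs of these 3 genes were at most 1.38e-14 in either genotype.

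Hmox1 (Entrez 15368, chr8:75093618-75100593, plus strand), heme oxygenase 1, was at 63.4, 54.7 and 49.7 CPM in untreated WT and at 307, 272 and 254 CPM after 4 h of Jurkat cells (log2 2.31, SE 0.126, FDR 2.82e-16, edgeR). In KO it went from 75.0, 55.0 and 51.9 to 262, 269 and 234 CPM (log2 2.07, SE 0.125, FDR 3.43e-15, edgeR). Nqo1 (Entrez 18104, chr8:107388225-107403205, minus strand), NAD(P)H quinone dehydrogenase 1, is widely used as an indicator of NRF2 activity. It was low before treatment, at 1.34, 1.42 and 1.29 CPM in WT and 1.85, 1.60 and 1.46 CPM in KO. After 4 h of Jurkat cells it reached 12.04, 10.02 and 13.1 CPM in WT (log2 3.12, SE 0.119, FDR 4.69e-20), with 12.3, 13.1 and 12.2 CPM in KO (log2 2.94, SE 0.114, FDR 8.15e-20), both by edgeR. This was the second largest rise of the 10 in each genotype, to a level that was then the lowest of the 10 per kilobase, at 7.54 CPM per kilobase in WT.

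**Figure D2:**
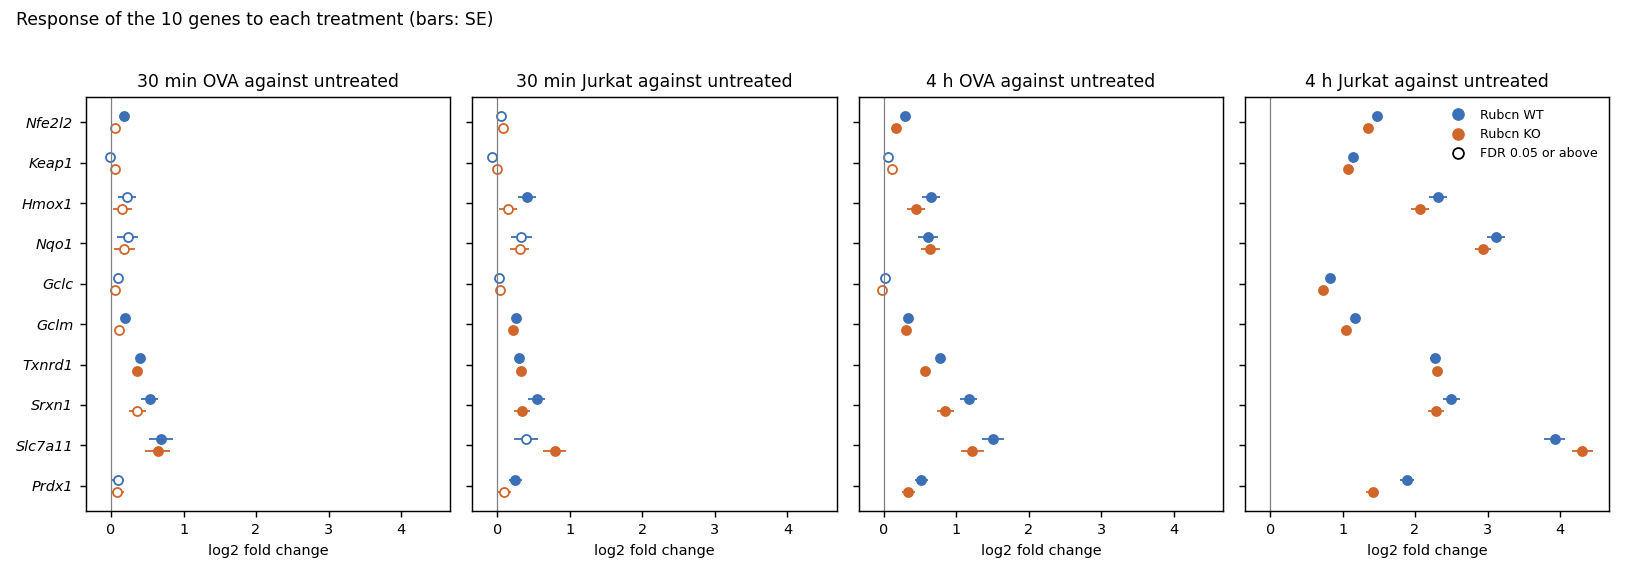
Log2 fold change of each of the 10 genes against untreated cells of the same genotype, 1 panel per treatment, with bars of 1 SE; open points had an edgeR FDR of 0.05 or above. All 20 points of the 4 h Jurkat panel are filled and lie between 0.73 and 4.31; in the 4 h OVA panel 16 are filled, with Keap1 and Gclc open in both genotypes.

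OVA protein was followed by smaller changes over the same 4 h. In each genotype 8 of the 10 genes rose, and Keap1 and Gclc did not pass this test in either (FDR 0.295 and 0.832 in WT, 0.0556 and 0.813 in KO, edgeR). In KO Keap1 was called higher with total counts (log2 0.12, FDR 0.0412) and in a fit of the 6 compared libraries alone (log2 0.12, FDR 0.0437). Of all genes tested 11.9% were called higher in WT and 5.94% in KO. The median log2 change of the 10 was 0.56 in WT and 0.39 in KO, against -0.00196 and -3.95e-04 over all genes. In the same comparisons 9 of 14 macrophage or monocyte genes were called higher and 1 lower in WT, and 7 higher and 1 lower in KO. Their summed level was 4364 to 4742 CPM with OVA and 3658 to 4132 CPM without in WT, and 4414 to 4487 and 3816 to 4391 CPM in KO, without overlap, and their part in the members' changes was not tested. Slc7a11 led again, at 20.6, 19.5 and 13.9 CPM in WT (log2 1.51, SE 0.154, FDR 1.79e-08), with 14.9, 13.4 and 14.8 CPM in KO (log2 1.22, SE 0.157, FDR 2.88e-06). Srxn1 stood at 49.5, 54.4 and 40.7 CPM in WT (log2 1.17, SE 0.116, FDR 1.07e-08), with 58.0, 49.2 and 52.9 CPM in KO (log2 0.85, SE 0.113, FDR 4.45e-06). These were the only genes of the 10 past 2-fold in WT, and Slc7a11 alone was in KO. Txnrd1 reached 230.1, 241 and 208 CPM in WT (log2 0.77) and 214, 192 and 203 CPM in KO (log2 0.57), above every untreated library. Hmox1 was at 88.7, 99.0 and 75.9 CPM in WT (log2 0.65) and 91.0, 74.9 and 80.6 CPM in KO (log2 0.44), where replicate 2 with OVA, at 74.9 CPM, lay just below the highest untreated library, at 75.0 CPM. Nfe2l2, Nqo1, Gclm and Prdx1 rose by 1.12-fold to 1.56-fold. Prdx1 was at 555, 583 and 459 CPM in WT (log2 0.52) and 569, 557 and 559.9 CPM in KO (log2 0.34). Nqo1 stayed low, at 2.33, 2.16 and 1.74 CPM in WT (log2 0.61) and 2.46, 2.60 and 2.61 CPM in KO (log2 0.64). Gclm was at 35.3, 35.3 and 33.1 CPM in WT (log2 0.33) and 39.6, 35.9 and 37.5 CPM in KO (log2 0.30). Nfe2l2 itself had the smallest called rise, to 138, 138 and 134 CPM in WT (log2 0.29) and 137, 135 and 139.6 CPM in KO (log2 0.17). In WT all 8 calls held without any 1 library. In KO the calls of Nfe2l2, Hmox1 and Prdx1 were lost without KO untreated replicate 2, and also without KO untreated replicate 3, which left 5. Hmox1 also lost its call without KO 4 h OVA replicate 1 (edgeR FDR 0.118), and Nfe2l2 without KO 4 h OVA replicate 3 (edgeR FDR 0.0680).

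At 30 min part of the set already stood above untreated cells with each treatment. With OVA 5 genes rose in WT, namely Nfe2l2, Gclm, Txnrd1, Srxn1 and Slc7a11, and 2 rose in KO, Txnrd1 and Slc7a11. The share of all genes called higher was 5.51% in WT and 1.88% in KO. With Jurkat cells 5 rose in WT, namely Hmox1, Gclm, Txnrd1, Srxn1 and Prdx1, and 4 rose in KO, namely Gclm, Txnrd1, Srxn1 and Slc7a11, where 14.2% and 8.72% of all genes were called higher. No member fell in any of these 4 comparisons. Txnrd1 was called in all 4 of them. Its WT libraries stood at 180.3, 177 and 165 CPM with OVA (log2 0.39, SE 0.0553, FDR 2.01e-05) and 159, 161 and 168 CPM with Jurkat cells (log2 0.30, SE 0.0553, FDR 1.63e-04), against at most 134 CPM in untreated WT. In KO they stood at 164, 188 and 173 and 176, 166 and 170.1 CPM (log2 0.36 and 0.32). In this fit Slc7a11 had the largest called change in 3 of the 4 comparisons, and Srxn1 had it with Jurkat cells in WT, where Slc7a11 was not called (log2 0.39, FDR 0.0777). Slc7a11 was at 10.96, 9.89 and 9.60 CPM with OVA in WT (log2 0.69, SE 0.163, FDR 0.00569). In KO with Jurkat cells it was at 14.6, 8.09 and 9.29 CPM (log2 0.79, SE 0.162, FDR 9.57e-04), where replicate 1 stood far above the other two. Srxn1 with Jurkat cells was at 32.8, 28.7 and 31.9 CPM in WT (log2 0.54, SE 0.119, FDR 9.60e-04). Hmox1 with Jurkat cells was at 73.9, 68.9 and 79.7 CPM in WT (log2 0.41, SE 0.124, FDR 0.0142), with 61.9, 64.7 and 74.0 CPM in KO (log2 0.14, FDR 0.492). The difference between these responses was not called. Nqo1, Keap1 and Gclc were called in none of the 4 comparisons. At this time 9 of 19 T-lineage genes in WT and 8 in KO were called higher with Jurkat cells, and their part was not tested. Several early calls depended on at least 1 library. In WT with OVA, Gclm lost its call without replicate 1 or 2 of either group (edgeR FDR 0.0789 to 0.113). The Gclm call was also lost with total counts (FDR 0.0503) and in a fit of the 6 compared libraries alone (FDR 0.0547). Nfe2l2 lost its call in WT with OVA without WT untreated replicate 3 (FDR 0.0643). In KO with OVA, Slc7a11 lost its call without KO 30 min OVA replicate 2 or 3, the latter being the shallowest library, and without KO untreated replicate 2 or 3, which left 1 call. In WT with Jurkat cells, Hmox1 and Prdx1 lost theirs without WT untreated replicate 3, which left 3. Hmox1 also lost its call without WT 30 min Jurkat replicate 3 (FDR 0.0690). Prdx1 also lost its call without WT 30 min Jurkat replicate 1 (FDR 0.277) or WT untreated replicate 2 (FDR 0.0785). DESeq2 did not call Prdx1 there either (adjusted p 0.0626). In KO with Jurkat cells, Gclm and Srxn1 lost theirs without KO untreated replicate 2, which left 2. Srxn1 also lost its call without KO untreated replicate 3 or any 1 of the 3 KO libraries with Jurkat cells (FDR 0.0517 to 0.233). It was not called in a fit of the 6 compared libraries alone (FDR 0.107) or by DESeq2 (adjusted p 0.0510).

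Apoptotic cells were then set against OVA at 30 min and at 4 h, averaging over both genotypes. At 30 min none of the 10 genes differed in edgeR's test. Of all genes 29.9% were called at that time, and 2 members had an unadjusted p under 0.05. The log2 differences of the 10 ran from -0.07 to 0.11, and their approximate 95% intervals, from the SE, lay within -0.30 and 0.30. Under DESeq2 none was called either, and scaling to total counts or a replicate block called Keap1 lower. The 11 T-lineage genes that were low in untreated cells were already raised in the 30 min Jurkat libraries, as given above. At 4 h all 10 genes were higher with Jurkat cells than with OVA, and 39.4% of all genes were called higher. The log2 difference was 2.75 for Slc7a11, 2.40 for Nqo1, 1.65 for Hmox1, 1.61 for Txnrd1 and 1.38 for Srxn1. It was 1.23 for Prdx1, 1.18 for Nfe2l2, 1.02 for Keap1, and 0.78 for both Gclc and Gclm, with edgeR FDRs of at most 2.79e-16. Scaling to total counts kept all 10 called, between 0.41 and 2.39, while it moved the higher share of all calls from 47.7% to 27.4%.

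Whether loss of Rubcn altered these genes was asked within each condition. The differences were small, and 5 calls were made in 50 comparisons of a gene between genotypes. In untreated cells Srxn1 was higher in KO and Keap1 was lower, at 30 min of Jurkat cells Nfe2l2 was higher, and at 4 h of Jurkat cells Slc7a11 was higher and Keap1 lower. With OVA no member was called at 30 min or at 4 h, where 3 and 5 members had an unadjusted p under 0.05. DESeq2 called 0 at 30 min and 1 at 4 h. Of all genes, edgeR called 9.97% in untreated cells, 12.4% and 12.6% with OVA at 30 min and 4 h, and 9.25% and 22.9% with Jurkat cells. The members' counts, 2, 0, 0, 1 and 2 of 10 in that order, are close to these shares for a list of 10 genes, and nothing particular to the 10 is read from them. Median log2 differences of the 10 were 0.12, 0.03, -0.03, 0.11 and 0.02, against -0.01, -0.00146, -0.00214, -0.00281 and -0.01 for all genes. With total-count scaling the higher share of all calls moved from 50.5% to 63.8% at 30 min of OVA, from 49.5% to 64.5% at 4 h of OVA and from 40.9% to 74.8% at 4 h of Jurkat cells. Stromal markers were higher in KO in every condition, with 7 to 9 of 11 called, as were all 6 basophil or mast cell markers. Of the macrophage or monocyte genes 1 to 6 of 14 were called lower and 0 or 1 higher. Of the dendritic cell markers 3 to 5 of 12 were called lower and 0 to 2 higher. Without Jurkat cells 4 of 19 T-lineage genes were called higher in each condition, and 0 or 1 lower. The part of these markers in differences between genotypes was not tested.

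Keap1 was lower in KO at 4 h of Jurkat cells. At that time its KO libraries, at 174, 165 and 170.0 CPM, all lay below its WT libraries, at 189, 203 and 204 CPM (log2 -0.23, SE 0.0401, FDR 1.18e-04, edgeR). It stayed called under the 6 alternative analyses, at log2 -0.25 to -0.15, and without any 1 of the 6 libraries. In the same comparison 5 of 19 T-lineage genes tested were called lower in KO and 0 higher, where 22.9% of all genes were called. Their part in the Keap1 difference was not tested. In untreated cells Keap1 was at 76.2, 82.4 and 82.1 CPM in KO and 86.9, 90.0 and 93.2 CPM in WT (log2 -0.17, SE 0.0410, FDR 0.00787), also without overlap, as in 24.8% of all genes. This call was lost without KO untreated replicate 1 (FDR 0.0795), without WT untreated replicate 3 (0.0578) and in a fit of the 6 libraries alone (0.0511). With OVA and at 30 min of Jurkat cells Keap1 had log2 differences of -0.10, -0.11 and -0.10, none of them called, although a fit of the compared groups only called it at 4 h of OVA (FDR 0.0264).

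The other 3 calls each depended on at least 1 library. Srxn1 was at 36.7, 27.3 and 24.99 CPM in untreated KO and 23.2, 20.5 and 20.5 CPM in WT (log2 0.47, SE 0.119, FDR 0.00916, edgeR). The groups did not overlap, but KO replicate 1 stood well above the other two, and without it the log2 difference was 0.29 (FDR 0.148). That library held the highest value of its group for 9 of the 10 genes, all but Keap1. The Srxn1 mean was also above WT in the other 4 conditions, by log2 0.15 to 0.30, without a call in this fit. Nfe2l2 at 30 min of Jurkat cells was at 129, 124 and 133 CPM in KO and 119, 113 and 113 CPM in WT (log2 0.16, SE 0.0458, FDR 0.0236). It lost its call without any 1 of 4 libraries, KO replicates 1 and 3 and WT replicates 2 and 3 (log2 0.14 to 0.19 over the 6 libraries left out in turn, FDR up to 0.129). Slc7a11 at 4 h of Jurkat cells was at 116, 128 and 122 CPM in KO and 96.9, 90.5 and 99.6 CPM in WT (log2 0.35, SE 0.115, FDR 0.0265). These libraries did not overlap either, as in 36.5% of all genes. DESeq2 did not call it (log2 0.33, adjusted p 0.132), and in edgeR it lost its call without KO replicate 2 or 3 or WT replicate 1 or 2 (FDR 0.0549 to 0.108). Without KO replicate 2, the library with the most Rn45s, it was at log2 0.31 (FDR 0.105). At that time 5 of 19 T-lineage genes tested were called lower in KO and none higher, and their part was not tested. Hmox1, Nqo1, Gclc, Gclm, Txnrd1 and Prdx1 were called between genotypes in no condition in this fit, but other analyses of all their libraries called 3 of them. Prdx1 was called higher in KO without a filter on low counts in untreated cells and at 30 min of OVA (FDR 0.0364 and 0.0444), and a fit of the compared groups only called it higher at 30 min of OVA and lower at 4 h of Jurkat cells (FDR 0.0222 and 0.0132). Txnrd1 was called lower at 4 h of OVA by DESeq2 (adjusted p 0.0290), with its size factors (FDR 0.0444) and in the compared groups only (0.0489). Gclc was called lower at 4 h of Jurkat cells by DESeq2 (adjusted p 0.0336) and with its size factors (FDR 0.0360). The compared groups only also called Srxn1 higher at 30 min of OVA, at 30 min of Jurkat cells and at 4 h of Jurkat cells (FDR 0.0318, 0.0374 and 0.00573). Total-count scaling called Nfe2l2 higher in KO in untreated cells, Prdx1 there and at 30 min of OVA, and Txnrd1 and Srxn1 higher at 4 h of Jurkat cells. With TMM factors, over the 50 comparisons the approximate 95% intervals lay within -0.59 and 0.70.

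**Figure D3:**
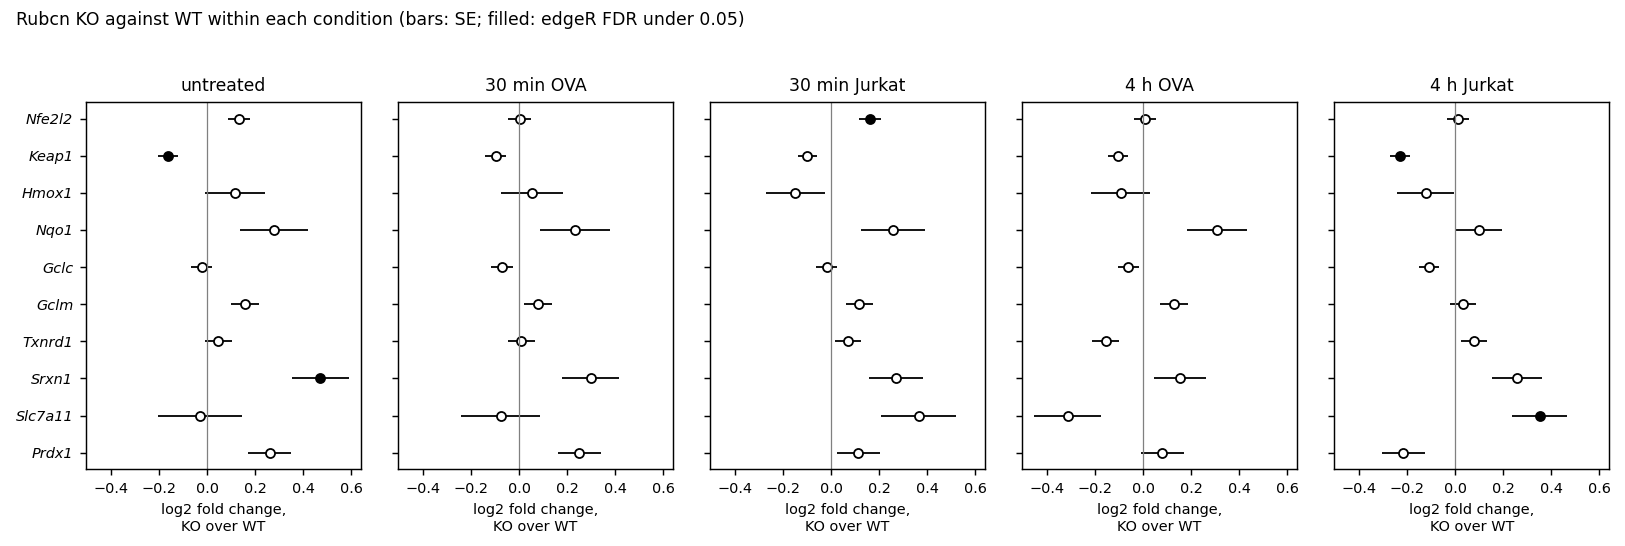
Log2 fold change of KO over WT for the 10 genes in each of the 5 conditions, with bars of 1 SE; filled points had an edgeR FDR under 0.05. Filled points are Keap1 (lower) and Srxn1 (higher) in untreated cells, Nfe2l2 (higher) at 30 min of Jurkat cells, and Keap1 (lower) and Slc7a11 (higher) at 4 h of Jurkat cells; all others are open.

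The responses of the genotypes were compared directly, as the change in KO less the change in WT. No member differed at 30 min of OVA, 30 min of Jurkat cells or 4 h of OVA in edgeR's test, with 0, 0 and 1 of 10 at an unadjusted p under 0.05. DESeq2 called none of them either. Over all genes 0%, 0.00675% and 0.0405% were called. Of the 6 genes called at 4 h of OVA 0% were higher in KO, and 14.3% of 7 with total-count scaling. Sod2, from the third list described below, was among the 6. Under 4 h of OVA the log2 differences of the 10 ran from -0.32 (Srxn1) to 0.06 (Keap1). Under 4 h of Jurkat cells 1 of 10 was called, Prdx1, with 4.26% of all genes called (40.3% of them higher in KO, and 76.8% with total-count scaling). Prdx1 rose by 3.71-fold in WT and 2.66-fold in KO, a log2 difference of -0.48 (SE 0.126, edgeR FDR 0.0279). Before treatment its mean was 372 ± 27.6 CPM in WT, against 445 ± 62.5 CPM in KO (SD, n = 3). The corresponding means were 1379 ± 43.0 and 1187 ± 24.2 CPM after 4 h of Jurkat cells. KO thus lay above WT before treatment, with overlapping libraries, and below it afterwards, with none. In this fit the difference between genotypes was not called at either time alone (FDR 0.0627 untreated, 0.0769 at 4 h), while other analyses given above called each of them. The interaction had a log2 of -0.48 to -0.41 and stayed called in the 6 other analyses of all its libraries. It was lost without any 1 of 6 of the 12 libraries, with the largest move, to -0.36 (FDR 0.104), without KO untreated replicate 1. Without replicate 2 of KO with Jurkat cells, the library with the most Rn45s, it was at -0.48 (FDR 0.0511). In the same interaction 2 of 19 T-lineage genes tested were called lower and 0 higher, with a median log2 difference of -0.60. Their part in the Prdx1 difference was not tested. The log2 differences of the other 9 genes ran from -0.24 (Hmox1) to 0.38 (Slc7a11), none of them called.

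Other genes of the pathway were taken from 3 lists that hold none of the 10. The first held 13 regulators and partners of NRF2 and KEAP1, and all were tested. At 4 h of Jurkat cells 9 rose and 3 fell in each genotype, with a median log2 change of 0.36 in WT and 0.35 in KO. Of all 14808 genes tested 11778 were called in WT and 11619 in KO, and 48.9% and 47.7% of these calls were higher. With total-count scaling 6 of the 13 rose and 5 fell in WT, 5 and 4 in KO, and the medians were -0.04 and 0.01. Of all calls 29.0% and 29.2% were then higher. With TMM factors 4 of the 13 rose at least 2-fold in each genotype. Sqstm1, which encodes p62, went from 245 ± 2.04 to 2259 ± 14.01 CPM in WT (log2 3.21, FDR 2.76e-28) and from 249 ± 4.24 to 2039 ± 41.0 CPM in KO (log2 3.04, FDR 8.52e-28; means ± SD, n = 3, edgeR). Maff and Mafk, which encode small MAF partners, rose too. Maff went from 7.98 ± 0.459 to 67.9 ± 2.32 CPM in WT (log2 3.09, FDR 1.40e-25) and from 8.45 ± 0.268 to 71.8 ± 0.914 CPM in KO (log2 3.09). Mafk went from 52.8 ± 1.78 to 132 ± 7.87 CPM in WT (log2 1.32) and had a log2 change of 1.26 in KO. With 4 h of OVA 3 of the 13 rose and 1 fell in WT, and 2 rose in KO, with Maff at log2 0.97 and 0.66 and Sqstm1 at 0.51 and 0.34. Of all genes 11.9% were called higher there in WT and 5.94% in KO. KO against WT, between 0 and 3 of the 13 were called in a condition, where 9.25% to 22.9% of all genes were called. The 3 called at 4 h of Jurkat cells were lower in KO, while with total-count scaling 3 were called higher and 0 lower. With TMM factors edgeR called none of them in the interactions, and with total-count scaling it called 1 higher at 4 h of Jurkat cells.

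The second list held 34 further genes described as NRF2 targets, of which 32 were tested and Gsta4 and Gpx2 were too low. They did not move as one. At 4 h of Jurkat cells 18 rose and 10 fell in WT and 16 rose and 9 fell in KO, with medians of 0.29 and 0.12. Among all genes tested 38.9% were called higher in WT and 37.5% in KO, which were 48.9% and 47.7% of all calls. With total-count scaling 12 of the 32 rose and 16 fell in WT, 11 and 15 in KO, and the medians were -0.11 and -0.22. Pgd, an enzyme of the pentose phosphate pathway that yields NADPH, went from 138 ± 1.26 to 386 ± 6.54 CPM in WT (log2 1.49, FDR 7.99e-23, edgeR) and had a log2 change of 1.26 in KO. Txn1, thioredoxin, went from 137 ± 5.25 to 358 ± 15.4 CPM (log2 1.38 in WT, 1.20 in KO). Gsr, glutathione reductase, went from 36.5 ± 1.34 to 92.6 ± 0.564 CPM (log2 1.34 and 1.32). With 4 h of OVA 12 rose and 1 fell in WT, and 7 rose and 2 fell in KO, with medians of 0.11 and 0.09. Of all genes 11.9% and 5.94% were called higher there. KO against WT, 6 of the 32 were higher and 1 lower in untreated cells, and 7 higher and 3 lower at 4 h of Jurkat cells, where 9.97% and 22.9% of all genes were called in either direction. With total-count scaling these counts were 8 and 1, and 9 and 2. In the interaction at 4 h of Jurkat cells 2 of the 32 were called higher and 3 lower, against 4.26% of all genes called. Pgd and Txn1 were among the lower (log2 -0.22 and -0.18, edgeR FDR 0.0320 and 0.0456). With total-count scaling 2 were higher and 0 lower. The other interactions called 0 of the 32 by edgeR. The third list held 22 other antioxidant enzymes. At 4 h of Jurkat cells 9 rose and 10 fell in WT and 7 rose and 10 fell in KO, with medians of 0.07 and -0.01. The shares called higher, 40.9% and 31.8%, were near the 38.9% and 37.5% of all genes. Nothing particular to this list is read from them. With total-count scaling 4 rose and 16 fell in WT, 3 and 17 in KO, and the medians were -0.34 and -0.35. Sod2, the mitochondrial superoxide dismutase, rose from 51.1 ± 1.47 to 212 ± 5.12 CPM in WT (log2 2.05, FDR 2.55e-27, edgeR; log2 2.04 in KO). Txnip, which binds and inhibits thioredoxin, fell from 439 ± 21.4 to 174 ± 11.8 CPM (log2 -1.34 and -1.37), and the sestrin Sesn1 fell from 71.7 ± 3.06 to 26.2 ± 0.630 CPM (log2 -1.45 and -1.46). With TMM factors Sod2 was the only gene of the 22 called in an interaction, at 4 h of OVA (log2 -0.34, edgeR FDR 0.00266). It rose there by log2 0.89 in WT and 0.55 in KO.

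**Figure D4:**
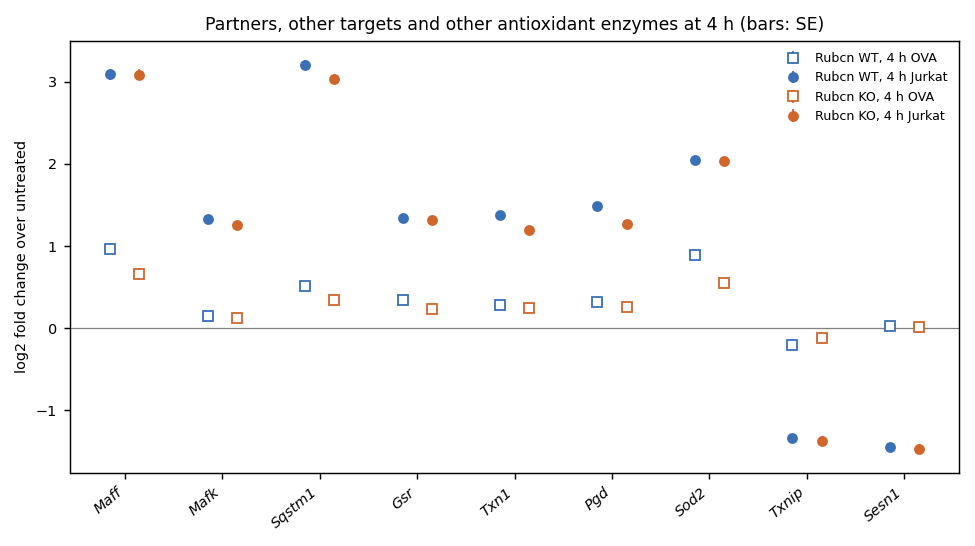
Log2 fold change against untreated cells at 4 h for the 9 named genes of the 3 lists, with squares for OVA, circles for Jurkat cells and bars of 1 SE, mostly smaller than the symbols. Maff, Mafk, Sqstm1, Gsr, Txn1, Pgd and Sod2 lie above 0 and higher with Jurkat cells than with OVA; Txnip and Sesn1 fall to -1.34 or below with Jurkat cells.

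The genes most like each member were sought by the root mean square difference of 10 group means of log2 CPM, each gene being centred on its own mean. This was done for the 9 members whose group means spanned at least 1 on the log2 scale, all but Gclc. Spans ran from 1.20 for Gclm to 4.30 for Slc7a11. Hmox1 and Txnrd1 lay close to each other, at a difference of 0.0971. Txnrd1 was the second nearest gene to Hmox1, after Cpeb4 (0.0940), and Hmox1 was the nearest to Txnrd1, followed by Slc7a8 (0.113). Nearest to Nfe2l2 were Stx6 (0.0329) and Rab12 (0.0499), and to Keap1 Il10ra (0.0416) and Chd1 (0.0439). For Prdx1 they were Anxa4 (0.0641) and Ppfibp1 (0.0853), and for Gclm Vmp1 (0.0439) and Wfdc17 (0.0689). The members with the widest spans had larger differences to their nearest genes. This measure is not scaled to span and tends to grow with it, so nothing is read from that. The genes were Ms4a6d (0.136) and Phf21b (0.150) for Nqo1, and Fam20c (0.141) and Igf2bp2 (0.175) for Srxn1. For Slc7a11 they were Icam1 (0.195) and Marcksl1 (0.195). For all 9 the highest group mean was that of a 4 h Jurkat group.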

How the data were processed

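RNA was sequenced from 30 libraries in 10 groups of 3, grouped by the genotype and treatment in the labels. The authors deposited 1 table of read counts per gene on mm10, per the file headers, with no normalization. The submitters' processing notes name STAR 2.5, Subread, featureCounts 1.5.0-p1 and DESeq2 without roles; annotation, strand setting and handling of human reads were not given in the sources used here. Total counts were 9.73 M to 51.6 M per library, and differences under the spread between 3 libraries cannot be resolved at this number.

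Counts were tested with edgeR 4.0.16 (R 4.3.3), by the two-sided quasi-likelihood F test with TMM factors, filterByExpr by group and 1 mean per group over all 30 libraries, with Benjamini-Hochberg adjustment over 14808 genes (FDR) and calls under 0.05. The SE is the size of the log2 fold change divided by the root of F, and the common biological coefficient of variation was 0.0515. Replicate pairs were compared by the mean squared deviation of their counts per gene, relative to sampling noise, and none was a duplicate (2.28 to 16.7 in 28 pairs). The 2 pairs with replicate 2 of KO with 4 h of Jurkat cells were at 129 and 134. The fit was tested on simulated data. Alternatives were total counts or DESeq2 size factors in edgeR, no filter, a replicate block, only the compared groups, DESeq2 1.42.0, and leaving out each library.

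All 10 members are named in the text. Genes of the other lists are named where called with at least 2-fold change and 5 CPM, at most 3 per list and contrast by smallest p. The members and lists were chosen with earlier results of these data known. Exon lengths and overlaps came from GENCODE M21 basic (GRCm38, the assembly of mm10), and promoters from RefSeq.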

Additional observations from a re-analysis of the deposited data

Results flagged for a closer look

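The response of Prdx1 to 4 h of Jurkat cells differed between genotypes when the difference itself was tested, with a log2 difference of -0.48 for the change in KO less the change in WT (edgeR FDR 0.0279). Its level was higher in KO than in WT before treatment and lower after it, and neither of those differences was called in the same fit, while other analyses called each of them. T-lineage genes had a median log2 difference of -0.60 in the same interaction, with 2 of 19 called lower and 0 higher. Their part was not tested.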

How the results depend on the processing

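No member's result changed direction with a call under any alternative run, and at 4 h of Jurkat cells against untreated cells or OVA all 10 calls held under every one of them. Members called KO against WT moved in untreated cells from 2 to 4 with total counts, to 1 with the compared groups only, and to 0 to 4 when 1 library was left out. At 30 min of OVA they moved from 0 to 1 with total counts or no filter, to 2 with the compared groups only, and to 0 to 3 leaving out 1 library, the most without WT 30 min OVA replicate 1. At 30 min of Jurkat cells they moved from 1 to 2 with the compared groups only and ran from 0 to 2 leaving out 1 library. At 4 h of OVA they moved from 0 to 1 with DESeq2 or its size factors, to 2 with the compared groups only, and ran from 0 to 2 leaving out 1. At 4 h of Jurkat cells they moved from 2 to 4 with total counts or the compared groups only, and ran from 1 to 3 leaving out 1. Leaving out 1 library gave, against untreated cells, 4 to 6 calls at 30 min of OVA in WT (5 in the full fit), 3 to 6 at 30 min of Jurkat cells in WT (5), 1 to 3 at 30 min of OVA in KO (2), 2 to 5 at 30 min of Jurkat cells in KO (4) and 5 to 8 at 4 h of OVA in KO (8). It gave 0 to 1 in the interaction at 4 h of Jurkat cells (1), and 0 to 1 for Jurkat cells against OVA at 30 min (0), where total counts gave 1. The causes of these moves were not tested, except that leaving out libraries or groups leaves fewer samples.

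Whether replicate numbers pair the libraries is not settled by correlations, as each group has only 3 libraries. In 0 of 13 contrasts did every same-numbered pair correlate over 0.1 (range -0.118 to 0.151). In 1 of 13, WT at 4 h of OVA, every library correlated best with its own number (6 of 6). In WT at 30 min of Jurkat cells 5 of 6 did, and the lowest number in a contrast was 0 of 6. A replicate block gave 1 call in place of 0 at 30 min of OVA, at 4 h of OVA and for Jurkat cells against OVA at 30 min, and 4 in place of 2 at 4 h of Jurkat cells, all KO against WT except the third. It also gave 3 in place of 2 KO against WT in untreated cells, and 9 in place of 8 in KO at 4 h of OVA, where Keap1 was added (FDR 0.0272). Between genotypes the block added Prdx1 in untreated cells (FDR 0.0264) and at 30 min of OVA (0.0254), Txnrd1 at 4 h of OVA (0.0497), and both Prdx1 (0.0336) and Srxn1 (0.0442) at 4 h of Jurkat cells. Over all genes the compared groups only gave 891 calls in place of 1370 (KO against WT, 30 min Jurkat), 833 of 1578 (WT, 30 min OVA), 246 of 558 (KO, 30 min OVA), 1460 of 2514 (KO, 30 min Jurkat) and 337 of 631 (interaction, 4 h Jurkat, 68.5% of them higher). Interactions at 30 min of Jurkat cells and 4 h of OVA had 1 and 6 calls, with 7 and 11 without a filter, 0 and 12 with the block and 12 and 22 by DESeq2; the compared groups only gave 0 at the former.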
